A study of Mus musculus with 6 samples.

Results

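The TNF receptor superfamily was followed through 10 of its genes, Tnfrsf1a, Tnfrsf1b, Tnfrsf10b, Tnfrsf11a, Tnfrsf11b, Tnfrsf12a, Tnfrsf14, Tnfrsf18, Tnfrsf19 and Tnfrsf21, which were taken by symbol from the 55276 rows of a table of RNA levels in the mouse oviduct. The members were chosen by symbol, with the RPKM values and the genotype differences of these same 6 libraries already known, so their values are given as a description. The receptors of this superfamily bind ligands of the TNF superfamily at the cell surface, mostly as trimers. Members with a death domain in their cytoplasmic tail can start cell death through FADD and caspase 8, and most members recruit TRAF proteins that lead to the NF-κB transcription factors. Several members are used by epithelial cells and others by leukocytes, and one of the 10, osteoprotegerin, is secreted and takes ligand away from its receptors.

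Whole oviducts were collected on day 2 of pregnancy from C57BL/6 females of at least 8 weeks, in 3 PgrCreCdc42f/f libraries and 3 Cdc42f/f libraries. Both genotypes carried Cdc42 with loxP sites around exon 2, and PgrCreCdc42f/f females also carried a Cre under the control of Pgr, the progesterone receptor gene (PgrCre/+), so that the exon is cut out where Pgr has been expressed. CDC42 is a small GTPase that organises the actin cytoskeleton and cell polarity. By the immunostaining described in the study the protein was lost in the isthmus, whereas RNA was taken from the whole oviduct, no library came from PgrCre females without floxed Cdc42, and the study counts as many mice as libraries in each genotype without saying that each library was a single mouse. The p-values given here measure the spread between these libraries, which the labels call biological replicates.

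Levels were RPKM, reads per kilobase of exon scaled to the depth of the library, and the reads behind them came to between 42360132 and 46406292 per library. Cdc42 itself was at 114, 126 and 121 RPKM in PgrCreCdc42f/f oviducts, against 128, 130 and 142 RPKM in Cdc42f/f oviducts (log2 difference -0.15, SE 0.08, limma adjusted p = 0.360), so the groups were apart but by little in RNA of the whole organ. This level covers all 7 exon blocks of the gene (2966 bases), so loss of the exon between the loxP sites was not measured by itself. The study reports reduced CDC42 in PgrCreCdc42f/f oviducts, in RNA by qPCR and in protein by western blot. The tissue label was met by high levels of Ovgp1, the oviductal glycoprotein (1574 to 3027 RPKM in PgrCreCdc42f/f and 2532 to 3849 RPKM in Cdc42f/f), and of the ciliary regulator Foxj1 (57.2 to 95.5 RPKM in PgrCreCdc42f/f and 83.9 to 120 RPKM in Cdc42f/f). The ovarian enzyme gene Cyp11a1 was at 0.863 RPKM in Cdc42f/f replicate 3 and at 0.067 RPKM or less in the other 5 libraries. The ovary markers Star, Inha and Foxl2 overlapped between genotypes, at 3.27 to 4.87, 3.76 to 8.40 and 4.13 to 7.77 RPKM over all libraries. Amh also overlapped, at 0.259 RPKM or less, and Cyp19a1 was at 0. The fat hormone gene Adipoq was at 0.062 to 0.205 RPKM in PgrCreCdc42f/f and 0.633 to 1.47 RPKM in Cdc42f/f. Of the other fat markers, Plin1 and Retn were also apart and lower in PgrCreCdc42f/f, Cidec and Fabp4 overlapped, and Lep was at 0. The first principal component of all tested genes held 37.8% of the variance and separated the genotypes.

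All 10 receptor genes passed the filter on low values (0.5 RPKM or more in 3 or more of the 6 libraries), with 121 reads or more in every library. Of the 10, 9 had a positive log2 difference (PgrCreCdc42f/f minus Cdc42f/f) and Tnfrsf18 a negative one, with a median of 0.59 beside a median of 0.0058 over the 17581 genes tested. At an adjusted p under 0.05 over all tested genes, 1 of the 10 was higher in PgrCreCdc42f/f, Tnfrsf11b, and 0 were lower, while 7 of the 10 had an unadjusted limma p under 0.05, beside 20.8% of all tested genes (3655 of 17581). Among all genes tested 0.762% were called higher and 0.893% lower. In 6 of the 10 the PgrCreCdc42f/f libraries all lay above the Cdc42f/f libraries and in 0 all below, beside 13.5% of tested genes above and 13.9% below. Tnfrsf12a is 1 of the 6, although its PgrCreCdc42f/f replicate 1 was level with Cdc42f/f replicate 3 (4.893 against 4.891 RPKM, 442 against 456 reads). In whole organs, fewer cells of a type and less RNA per cell cannot be told apart.

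The summed RPKM of the 10 genes was 103, 124 and 123 in the PgrCreCdc42f/f libraries and 80.5, 85.8 and 90.3 in the Cdc42f/f libraries. Tnfrsf1a supplied 41.5%, 31.5% and 38.4% of that sum in PgrCreCdc42f/f and 39.2%, 41.8% and 41.9% in Cdc42f/f. The levels differed far more between receptors than between genotypes. In both genotypes Tnfrsf1a had the highest RPKM and Tnfrsf19 the next, and each was apart from the receptor below it in all 3 libraries. Below these, every receptor overlapped its neighbour in the order in both genotypes. Tnfrsf11b took the fifth place in PgrCreCdc42f/f and the eighth in Cdc42f/f, Tnfrsf18 the eighth in PgrCreCdc42f/f and the fourth in Cdc42f/f, and Tnfrsf14 came last in both.

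**Figure D1:**
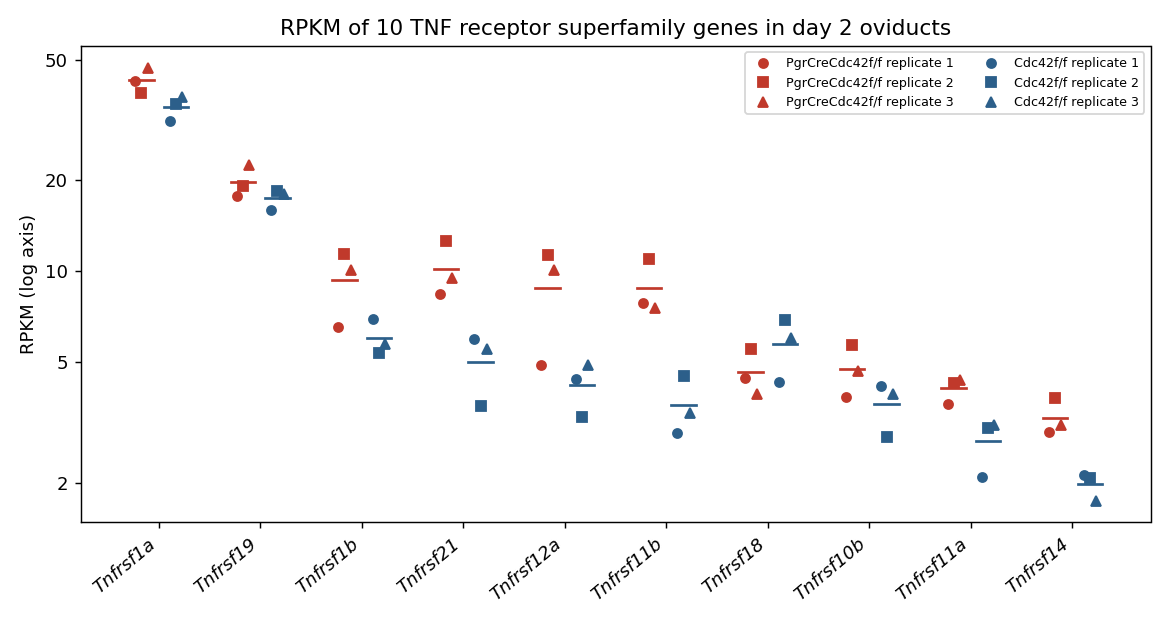
RPKM (log axis) of the 10 receptor genes in each library, with PgrCreCdc42f/f in red and Cdc42f/f in blue, a symbol per replicate and a bar at the mean of 3 libraries, ordered by mean RPKM. Tnfrsf1a and Tnfrsf19 stand above the rest in both genotypes, and the blue symbols lie below the red ones for Tnfrsf21 and Tnfrsf11b without overlap.

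Promoters were laid out to show what sequence stands before these genes. RefSeq promoter windows (GRCm38.p6) were matched for 8 of the 10 genes, with 9 start sites. The unmatched genes were Tnfrsf10b and Tnfrsf11b. Motifs were read on both strands of the 250 bases before each start. The GC box GGGCGG, which is bound by factors of the Sp family, was present in 5 of 9 windows (32.7% of 32851 promoters of that length), the AP-1 site TGANTCA in 0 (6.7% of promoters) and the kappa B motif in 0 (7.3% of promoters). Annotated exons covered 158 bases of the window of Tnfrsf18, 125 of Tnfrsf14 and 36 of Tnfrsf1a. The bases after either Tnfrsf19 start were not found in an annotated transcript of that gene. Its window at chr14:61037988-61038237 held 3 GC boxes. Tnfrsf12a, on the minus strand (chr17:23677450-23677699), held 5 GC boxes, Tnfrsf21, on the plus strand (chr17:43016305-43016554), held 1, and Tnfrsf11a, on the plus strand (chr1:105780473-105780722), held 4. These windows are printed 5′ to 3′ along the gene with the GC boxes in capitals, because the groups of these genes did not overlap and their windows lay almost wholly outside annotated exons. For Tnfrsf12a the nearest libraries of the groups were level, at 4.893 and 4.891 RPKM. The groups of Tnfrsf14 and Tnfrsf1a did not overlap either, and their windows, which reach farther into annotated exons and are not printed, held 0 GC boxes, so the printed windows do not stand for all such receptors. A match of letters says nothing of binding.
Tnfrsf12a: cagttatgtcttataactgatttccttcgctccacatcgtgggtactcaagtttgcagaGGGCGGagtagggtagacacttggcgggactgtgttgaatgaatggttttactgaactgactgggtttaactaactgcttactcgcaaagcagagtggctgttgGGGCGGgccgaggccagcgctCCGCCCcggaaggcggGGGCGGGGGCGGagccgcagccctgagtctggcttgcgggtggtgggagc
Tnfrsf21: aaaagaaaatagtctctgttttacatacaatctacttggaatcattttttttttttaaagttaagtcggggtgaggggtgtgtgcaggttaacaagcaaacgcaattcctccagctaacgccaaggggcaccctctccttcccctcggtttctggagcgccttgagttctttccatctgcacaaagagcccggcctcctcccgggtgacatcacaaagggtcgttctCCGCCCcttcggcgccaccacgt
Tnfrsf11a: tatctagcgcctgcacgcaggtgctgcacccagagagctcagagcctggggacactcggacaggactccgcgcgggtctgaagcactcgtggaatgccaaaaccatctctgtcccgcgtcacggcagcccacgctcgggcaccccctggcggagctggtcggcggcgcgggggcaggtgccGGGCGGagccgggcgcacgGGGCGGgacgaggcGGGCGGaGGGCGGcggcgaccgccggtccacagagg
The base composition differed between them, with a GC content of 58.8% for Tnfrsf12a, 50.4% for Tnfrsf21 and 73.6% for Tnfrsf11a, and 15, 12 and 31 CpG dinucleotides in that order.

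Among the members, the receptors for TNF itself were taken first. Tnfrsf1a encodes TNFR1, the death domain receptor for TNF and lymphotoxin-α that most cells carry. It was at 42.8, 39.0 and 47.3 RPKM in PgrCreCdc42f/f oviducts, against 31.5, 35.9 and 37.8 RPKM in Cdc42f/f oviducts. The lowest PgrCreCdc42f/f library was just above the highest Cdc42f/f library, and the mean level stood at percentile 94.2 of tested genes. The log2 difference was 0.29 with a 95% interval of 0.04 to 0.55, which did not pass the test (limma adjusted p = 0.192).

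Tnfrsf1b encodes TNFR2, which lacks a death domain, signals through TRAF2 and is found mostly on leukocytes and endothelium. Its level was 6.54, 11.4 and 10.1 RPKM in PgrCreCdc42f/f and 6.97, 5.36 and 5.76 RPKM in Cdc42f/f. PgrCreCdc42f/f replicates 2 and 3 were above all Cdc42f/f libraries, but PgrCreCdc42f/f replicate 1 lay among them. The log2 difference was 0.60, with an interval of 0.07 to 1.12 and an adjusted p of 0.196 by limma. The ratio of Tnfrsf1a to Tnfrsf1b in RPKM was 6.54, 3.42 and 4.66 in PgrCreCdc42f/f and 4.52, 6.69 and 6.56 in Cdc42f/f, so the balance of the TNF receptors overlapped between genotypes.

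Tnfrsf10b encodes the death receptor for TRAIL in the mouse. It was at 3.83, 5.69 and 4.69 RPKM in PgrCreCdc42f/f, against 4.18, 2.83 and 3.94 RPKM in Cdc42f/f. The ranges overlapped, since PgrCreCdc42f/f replicate 1 lay below Cdc42f/f replicates 1 and 3. The log2 difference was 0.37 with an interval of -0.12 to 0.85 (limma adjusted p = 0.355). Tnfrsf21 encodes death receptor 6, for which a fragment of the amyloid precursor protein has been described as a ligand in neurons. Its level was 8.40, 12.6 and 9.51 RPKM in PgrCreCdc42f/f oviducts and 5.97, 3.58 and 5.54 RPKM in Cdc42f/f oviducts. Each PgrCreCdc42f/f library was above each Cdc42f/f library, with the highest value in PgrCreCdc42f/f replicate 2 and the lowest in Cdc42f/f replicate 2. The mean was 2.02 times as high in PgrCreCdc42f/f, with a log2 difference of 1.01 (SE 0.23, interval 0.46 to 1.57), and missed the threshold over all genes (limma adjusted p = 0.082).

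Tnfrsf11b, on the minus strand of chromosome 15 (chr15:54250619-54278484, GRCm38), encodes osteoprotegerin, the secreted decoy that binds RANKL and also TRAIL. It rose to 7.83, 11.0 and 7.55 RPKM in PgrCreCdc42f/f oviducts, against 2.92, 4.49 and 3.40 RPKM in Cdc42f/f oviducts. These levels rested on 1032, 1317 and 997 reads in PgrCreCdc42f/f and 358, 586 and 462 reads in Cdc42f/f. The groups were well apart, and replicate 2 was the highest of each. The mean was 2.44 times as high (8.80 ± 1.92 RPKM in PgrCreCdc42f/f and 3.60 ± 0.80 RPKM in Cdc42f/f, SD, n = 3 each), with a log2 difference of 1.27 (SE 0.21, interval 0.77 to 1.76, limma adjusted p = 0.0455). The call was close to the threshold and was lost on leaving out any 1 of the 6 libraries (adjusted p of 0.0625 without PgrCreCdc42f/f replicate 1, 0.116 without replicate 2 and 0.0930 without replicate 3, and 0.0981, 0.0901 and 0.121 without Cdc42f/f replicates 1, 2 and 3). The difference itself stayed between 1.09 and 1.43 in those 6 fits.

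Tnfrsf11a encodes RANK, the signalling receptor for RANKL, which is known for its part in bone and in the mammary epithelium under progesterone. It was at 3.63, 4.28 and 4.39 RPKM in PgrCreCdc42f/f and 2.09, 3.03 and 3.11 RPKM in Cdc42f/f. The groups did not overlap, although the lowest library of PgrCreCdc42f/f was only slightly above the highest of Cdc42f/f. The log2 difference was 0.58 (interval 0.15 to 1.003, limma adjusted p = 0.144). The ratio of decoy to receptor, Tnfrsf11b over Tnfrsf11a in RPKM, was 2.16, 2.57 and 1.72 in PgrCreCdc42f/f and 1.40, 1.48 and 1.09 in Cdc42f/f. Thus the decoy was the more abundant RNA in every library, and its lead over RANK was larger in each PgrCreCdc42f/f library than in any Cdc42f/f library.

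Tnfrsf12a encodes Fn14, a short receptor for TWEAK that is known to be induced in injured and regenerating tissue. Its promoter is the first of those printed above, with 5 GC boxes. Its level was 4.893, 11.3 and 10.1 RPKM in PgrCreCdc42f/f, against 4.42, 3.29 and 4.891 RPKM in Cdc42f/f. PgrCreCdc42f/f replicates 2 and 3 were high, whereas PgrCreCdc42f/f replicate 1 was level with Cdc42f/f replicate 3. Over all 6 libraries the log2 difference was 0.98 (SE 0.33, interval 0.19 to 1.77, limma adjusted p = 0.169). Without PgrCreCdc42f/f replicate 1 it was 1.35 and passed the test (adjusted p = 0.0438), while over all alternatives run the adjusted p ranged from 0.0438 to 0.393. Thus only the fit without PgrCreCdc42f/f replicate 1 called this gene, and the cause was not tested.

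Tnfrsf14 encodes HVEM, which binds LIGHT and, in the other direction, engages the inhibitory lymphocyte receptor BTLA. It was the least abundant of the 10, at 2.93, 3.80 and 3.10 RPKM in PgrCreCdc42f/f and 2.11, 2.07 and 1.74 RPKM in Cdc42f/f. All PgrCreCdc42f/f libraries were above all Cdc42f/f libraries, and the spread within each genotype was small. The log2 difference was 0.70 (SE 0.15, interval 0.35 to 1.05), with a limma adjusted p of 0.069.

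Tnfrsf18 encodes GITR, a costimulatory receptor best known on regulatory T cells. It went the other way in sign, at 4.43, 5.52 and 3.94 RPKM in PgrCreCdc42f/f and 4.32, 6.89 and 6.00 RPKM in Cdc42f/f. The ranges overlapped through Cdc42f/f replicate 1, and the log2 difference of -0.29 had an interval of -0.78 to 0.20 (limma adjusted p = 0.467). Of its exon bases, 27.2% are shared with Gm16008 on the opposite strand, and whether counting used strand was not stated, so its reads and those of Gm16008 cannot be told apart there. Foxp3, the defining factor of regulatory T cells, was at 0.079, 0.124 and 0.047 RPKM in PgrCreCdc42f/f and 0.156, 0.175 and 0.140 RPKM in Cdc42f/f, under the filter in all libraries. It rested on 10 to 37 reads, and shares 18.6% of its exon bases with genes on the same strand and 18.7% on the opposite strand. Ctla4 (0.184, 0.283 and 0.073 against 0.099, 0.046 and 0.089 RPKM) and Il2ra (0.285, 0.309 and 0.378 against 0.258, 0.287 and 0.403 RPKM), also under the filter, overlapped between genotypes.

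Tnfrsf19 encodes TROY, a receptor of epithelial and neural tissue that is known as a target of Wnt signalling and whose ligand is not settled. Its level was 17.8, 19.2 and 22.4 RPKM in PgrCreCdc42f/f, against 16.0, 18.4 and 18.1 RPKM in Cdc42f/f. PgrCreCdc42f/f replicates 2 and 3 were above all Cdc42f/f libraries, but PgrCreCdc42f/f replicate 1 lay among them. The log2 difference was 0.17, with an interval of -0.09 to 0.44 (limma adjusted p = 0.425).

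**Figure D2:**
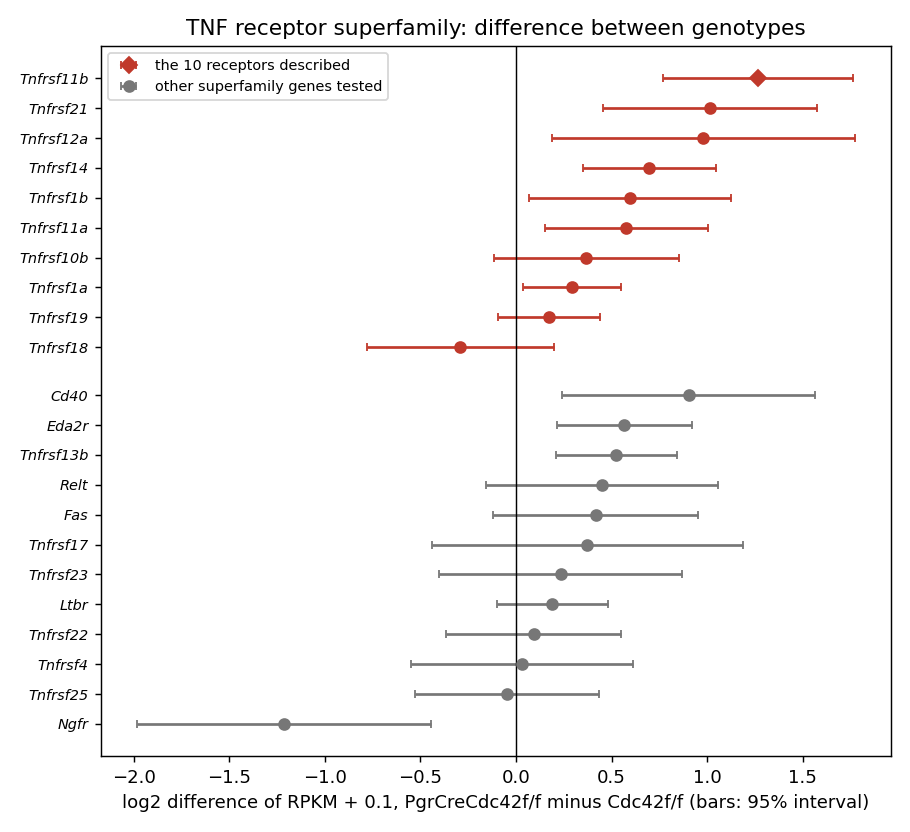
Log2 difference of RPKM + 0.1 (PgrCreCdc42f/f minus Cdc42f/f) for the 10 receptor genes in red and the other 12 tested superfamily genes in grey, with 95% intervals from limma and a diamond for the gene that passed the test. Tnfrsf11b (1.27), Tnfrsf21 (1.01) and Tnfrsf12a (0.98) lie farthest to the right, and Ngfr (-1.21) farthest to the left.

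The libraries of PgrCreCdc42f/f did not carry these differences equally. Taken as a log2 difference from the Cdc42f/f mean, the median receptor stood at 0.26, 0.78 and 0.65 in the 3 PgrCreCdc42f/f libraries in replicate order, and at -0.02, 0.05 and 0.10 in the Cdc42f/f libraries. PgrCreCdc42f/f replicate 1 was the lowest of its genotype for 7 of the 10 genes, and PgrCreCdc42f/f replicate 2 the highest for 7. Tnfrsf11b stood 1.12, 1.61 and 1.07 above its Cdc42f/f mean on the log2 scale in PgrCreCdc42f/f replicates 1, 2 and 3, so it was raised in each. Leaving out PgrCreCdc42f/f replicate 1, 2 or 3 gave medians over the 10 genes of 0.72, 0.49 and 0.52.

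**Figure D3:**
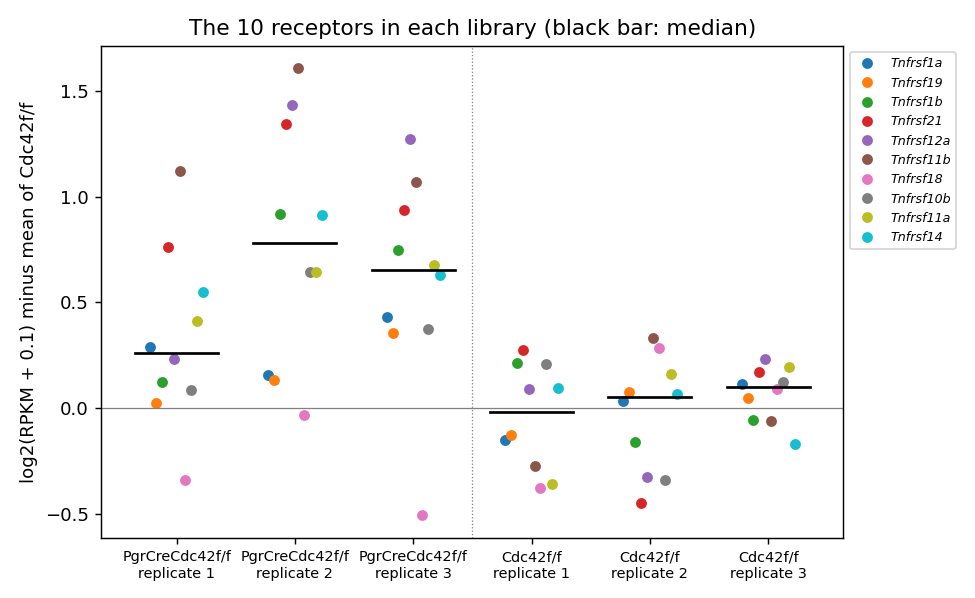
Log2(RPKM + 0.1) of each receptor gene minus its mean in Cdc42f/f, by library, with PgrCreCdc42f/f on the left, a colour per gene and a black bar at the median of the 10 genes. The bars stand at 0.26, 0.78 and 0.65 in PgrCreCdc42f/f and near 0 in Cdc42f/f, and Tnfrsf18 is the only gene under 0 in all 3 PgrCreCdc42f/f libraries.

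The other 18 genes of the superfamily were read beside the 10. Of these, 12 passed the filter, 10 with a positive difference and 2 with a negative one, and 0 were called in either direction by limma (4 of 12 at an unadjusted p under 0.05, beside 20.8% of all tested genes). Their median log2 difference was 0.30. The most abundant by the mean over all 6 libraries were Ltbr, the lymphotoxin-β receptor, at 29.4, 32.3 and 38.7 RPKM in PgrCreCdc42f/f and 27.0, 29.1 and 31.5 RPKM in Cdc42f/f (log2 difference 0.19), and Fas, the death receptor for Fas ligand, at 6.70, 4.57 and 3.77 RPKM in PgrCreCdc42f/f and 4.26, 3.40 and 3.28 RPKM in Cdc42f/f (log2 difference 0.42). Both overlapped between genotypes, and in neither genotype taken alone did Fas hold the next place after Ltbr. Picked after their values were seen, Cd40, the costimulatory receptor of antigen-presenting cells (log2 difference 0.90), Eda2r, a receptor for ectodysplasin (0.57), Tnfrsf13b, the B cell receptor TACI (0.53), and Relt (0.45) had libraries apart and higher in PgrCreCdc42f/f, with limma adjusted p of 0.141, 0.103, 0.096 and 0.366. Ngfr, the low-affinity neurotrophin receptor, also picked after its values were seen, was apart and lower, at 0.397, 0.615 and 0.942 RPKM in PgrCreCdc42f/f, against 1.42, 1.32 and 2.04 RPKM in Cdc42f/f (log2 difference -1.21, SE 0.32, limma adjusted p = 0.106).

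Of the 8 ligand genes tested, Tnf was the 1 that passed the test, beside 0.762% of all tested genes called higher. It was at 1.74, 1.94 and 1.65 RPKM in PgrCreCdc42f/f oviducts, against 0.519, 0.501 and 0.455 RPKM in Cdc42f/f oviducts, resting on 133, 135 and 127 reads in PgrCreCdc42f/f and 37, 38 and 36 reads in Cdc42f/f. The groups were far apart with little spread within either, and the log2 difference was 1.66 (SE 0.17, interval 1.26 to 2.07, limma adjusted p = 0.0194). On a scale with a pseudocount of 1 the difference of this low gene was 0.90 (adjusted p = 0.0180). The call held without PgrCreCdc42f/f replicate 1 (adjusted p = 0.0397) and was lost without any of the other 5 libraries (0.0846 without PgrCreCdc42f/f replicate 2, 0.0611 without PgrCreCdc42f/f replicate 3, and 0.0556, 0.0811 and 0.0743 without Cdc42f/f replicates 1, 2 and 3). In RPKM, Tnf was thus far below its receptor Tnfrsf1a in every library.

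Ligands of the other receptors gave no call. Of 18 TNF superfamily ligands 8 were tested, 6 of them with a positive difference, and their median log2 difference, Tnf included, was 0.25. Tnfsf12, which encodes TWEAK, the ligand of Fn14, was at 9.29, 7.10 and 8.29 RPKM in PgrCreCdc42f/f and 5.79, 6.59 and 7.35 RPKM in Cdc42f/f, with an overlap at PgrCreCdc42f/f replicate 2 (log2 difference 0.32, limma adjusted p = 0.250). Tnfsf10, which encodes TRAIL, was at 7.76, 6.98 and 12.4 RPKM in PgrCreCdc42f/f and 7.09, 11.6 and 11.0 RPKM in Cdc42f/f (log2 difference -0.14, adjusted p = 0.805). For neither did the genotypes separate. Among the 10 ligand genes under the filter, Tnfsf8, the gene of the CD30 ligand, picked after its values were seen, was apart and higher, at 0.843, 0.297 and 0.594 RPKM in PgrCreCdc42f/f, against 0.236, 0.136 and 0.196 RPKM in Cdc42f/f, and was not tested.

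Tnfsf11, the gene of RANKL, was close to the lower end of detection in both genotypes. It was at 0.115, 0.147 and 0.172 RPKM in PgrCreCdc42f/f and 0.206, 0.135 and 0.056 RPKM in Cdc42f/f, on 6 to 20 reads per library, and was under the filter. Thus the decoy Tnfrsf11b and the receptor Tnfrsf11a were both far above their ligand in RPKM. Lta, the gene of lymphotoxin-α, Tnfsf14, the gene of LIGHT, and Tnfsf18, the gene of the GITR ligand, were also under the filter, at 0.564 RPKM or less in every library. Btla, the partner of HVEM, was at 0.970, 0.478 and 0.729 RPKM in PgrCreCdc42f/f and 0.542, 0.610 and 0.616 RPKM in Cdc42f/f (log2 difference 0.22), and App, the described partner of death receptor 6, was at 34.5, 39.6 and 42.3 RPKM in PgrCreCdc42f/f and 37.2, 39.8 and 43.1 RPKM in Cdc42f/f (log2 difference -0.05). Both overlapped between genotypes.

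**Figure D4:**
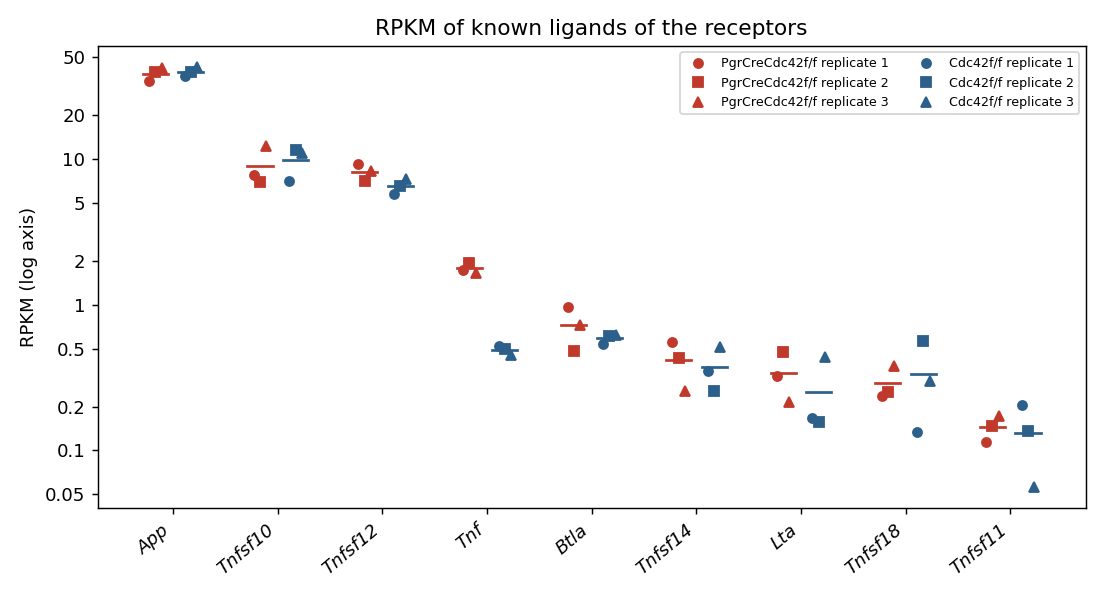
RPKM (log axis) of the known ligands and partners of the receptors in each library, with PgrCreCdc42f/f in red and Cdc42f/f in blue, a symbol per replicate and a bar at the mean of 3 libraries. Tnf is the only one whose groups do not overlap, at 1.65 to 1.94 RPKM in PgrCreCdc42f/f and 0.455 to 0.519 RPKM in Cdc42f/f.

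Downstream of the receptors stand the adaptors and regulators of the pathway. All 25 of their genes were tested, 20 with a positive difference, 0 were called by limma in either direction (7 at an unadjusted p under 0.05, beside 20.8% of all tested genes), 6 had groups apart and higher in PgrCreCdc42f/f and 2 (Fadd and Traf1) apart and lower, beside 13.5% and 13.9% of all tested genes, and the median log2 difference was 0.11. The most abundant, Tab2, which links ubiquitin chains to the kinase TAK1, and Rbck1, a part of the linear ubiquitin ligase, had log2 differences of -0.02 and 0.03. Picked after its values were seen, Birc3, which encodes the ubiquitin ligase cIAP2, was at 8.54, 8.95 and 9.32 RPKM in PgrCreCdc42f/f, against 5.32, 5.94 and 7.11 RPKM in Cdc42f/f, apart but not called (log2 difference 0.55, limma adjusted p = 0.075).

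Of 10 NF-κB subunit and inhibitor genes, 9 had a positive difference, with a median of 0.25, and 1 was called higher, beside 0.762% of all tested genes. An unadjusted limma p under 0.05 was found for 4, beside 20.8%. In 5 the groups were apart and higher and in 0 apart and lower, beside 13.5% and 13.9%. Besides Bcl3 these were Nfkbie, Nfkb2, Relb and Nfkb1, with log2 differences of 0.77, 0.52, 0.53 and 0.08 (limma adjusted p = 0.058, 0.089, 0.147 and 0.596). Bcl3, an atypical IκB protein that works in the nucleus with p50 and p52, was at 4.93, 4.98 and 6.37 RPKM in PgrCreCdc42f/f oviducts, against 1.76, 2.48 and 2.79 RPKM in Cdc42f/f oviducts. The groups were well apart, with a log2 difference of 1.19 (SE 0.20, interval 0.72 to 1.66, limma adjusted p = 0.0460). Like that of Tnfrsf11b, the call was lost on leaving out any 1 library, with adjusted p of 0.0631, 0.125 and 0.111 without PgrCreCdc42f/f replicates 1, 2 and 3 and 0.0741, 0.138 and 0.0826 without Cdc42f/f replicates 1, 2 and 3. The most abundant genes, Nfkbia, which encodes IκBα, and Rela, which encodes p65, had log2 differences of 0.14 and 0.10 with overlapping groups. The 4 genes for shedding of receptors and ligands gave 0 calls by limma (2 at an unadjusted p under 0.05, beside 20.8% of all tested genes). The protease Adam10 had a log2 difference of 0.34 with overlapping groups. Rhbdf1 helps bring the TNF converting enzyme to the cell surface. Its groups were apart and lower, at 9.33, 8.32 and 9.14 RPKM in PgrCreCdc42f/f, against 9.94, 10.6 and 11.2 RPKM in Cdc42f/f (log2 difference -0.24, limma adjusted p = 0.189). That enzyme, Adam17, picked after its values were seen, was at 8.55, 9.85 and 9.24 RPKM in PgrCreCdc42f/f, against 8.16, 6.39 and 6.94 RPKM in Cdc42f/f, apart but not called (log2 difference 0.36, limma adjusted p = 0.151).

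Markers of leukocytes and other cells were read in the same libraries. Of 12 macrophage markers 12 were tested and 12 had a positive difference, with a median of 0.64. By limma 2 were called higher (Ctss and Tyrobp), beside 0.762% of all tested genes, and 7 had an unadjusted p under 0.05, beside 20.8%. In 8 the groups were apart and higher in PgrCreCdc42f/f, beside 13.5% of all tested genes, and in 0 apart and lower, beside 13.9%. Their summed level was 503 to 675 RPKM in PgrCreCdc42f/f and 356 to 385 RPKM in Cdc42f/f, and none was at 0. Neutrophil markers summed to 18.3 to 38.5 RPKM in PgrCreCdc42f/f and 7.23 to 11.7 RPKM in Cdc42f/f. Of these 6, 4 were tested, 3 of them positive and 1 negative, and 1 was called higher (S100a8), beside 0.762% of all tested genes. S100a8 and S100a9, which carried most of that sum in PgrCreCdc42f/f, were highest in PgrCreCdc42f/f replicate 1 (7.21 and 22.7 RPKM). That library was the lowest of its genotype for 7 of the 10 receptors. It was also the lowest of its genotype for every listed macrophage marker except Lyz2. Cd68, for instance, was at 20.8, 28.8 and 31.4 RPKM in PgrCreCdc42f/f replicates 1, 2 and 3, and Lyz2 at 157, 236 and 117 RPKM. The neutrophil marker Ly6g was apart and lower, at 0.863, 0.250 and 1.04 RPKM in PgrCreCdc42f/f, against 1.27, 1.15 and 1.76 RPKM in Cdc42f/f. T and NK cell markers summed to 6.52 to 9.94 RPKM in PgrCreCdc42f/f and 5.72 to 7.41 RPKM in Cdc42f/f, with 5 of 12 tested and 0 called by limma (0 at an unadjusted p under 0.05). B and plasma cell markers had a median log2 difference of 0.22, with 4 of 6 tested, 4 positive and 0 called by limma (0 at an unadjusted p under 0.05). Smooth muscle markers had a median log2 difference of 0.44 (6 of 6 positive), stromal fibroblast markers -0.67 (4 of 6 negative) and multiciliated cell markers -0.55 (5 of 6 negative). The median was 0.17 for endothelial markers (6 of 6 positive), 0.20 for epithelial markers (4 of 6 positive) and 0.10 for secretory cell markers (3 of 5 positive). The part of these cell types in the receptor differences was not tested.

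The genes most alike in profile were sought for Tnfrsf11b and Tnfrsf21, the receptors with the largest absolute log2 differences, as the smallest root mean square distance of centred log2 values over the 6 libraries. For Tnfrsf11b these were Rbp2, a retinol-binding protein (distance 0.15), Gabrp, a GABA receptor subunit (0.15), and Rasl10a, a Ras-like GTPase (0.15), with log2 differences of 1.41, 1.05 and 1.35. For Tnfrsf21 they were Fcrls, an Fc receptor-like gene (distance 0.09), Gstm7, a glutathione transferase (0.09), and Lgals12, a galectin (0.13), with log2 differences of 0.987, 0.999 and 1.13. These distances share the same 6 libraries and 2 genotypes, and are given as a description.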

How the data were processed

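Oviduct RNA from 3 PgrCreCdc42f/f and 3 Cdc42f/f libraries was read on the BGISEQ-500 platform. RPKM values were deposited by the authors as 1 table, and all columns were matched to samples by their titles (0 columns of other samples). The submitters' processing notes name HISAT2, edgeR and mm10 (GRCm38), whereas the methods name Tophat2, and strand in counting is not given in the sources used here. Reads were recovered from RPKM and GENCODE M21 exon lengths, and 98.8% of 35362 rows gave whole reads within 0.01. Groups came from titles and genotype labels. Genes with RPKM of at least 0.5 in at least 3 libraries (17581, after 4 rows with repeated symbols were dropped) entered limma 3.58.1 as log2(RPKM + 0.1) (R 4.3.3, variance trend, two-sided, Benjamini-Hochberg over all tested genes, called under 0.05). Fold changes on this scale understate low genes. Code was checked on simulated data.

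The members and all gene lists were chosen with earlier results of these data known. Named genes were every member, Cdc42 and Pgr, their ligands, in each list the called genes and the 2 most abundant, and 3 nearest profiles for 2 members. Pgr, which carries Cre, was at 10.6, 11.1 and 10.8 RPKM in PgrCreCdc42f/f and 14.1, 12.4 and 13.9 RPKM in Cdc42f/f. Alternatives were other pseudocounts (1 and 0.01), filters, scalings, variance settings, voom on recovered reads, a replicate block and leaving out each library. Depth gave 0.0104 to 0.0118 RPKM for 1 read in a transcript of 2 kb.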

Additional observations from a re-analysis of the deposited data

How the results depend on the processing

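With 15 alternatives, the 10 receptor genes gave 150 values, of which 140 kept direction and side of the threshold, 9 lost the call (all Tnfrsf11b), 1 gained it (Tnfrsf12a) and 0 reversed. The adjusted p of Tnfrsf11b was 0.0771 with no filter, 0.0664 with no variance trend and 0.0938 with the replicate block, so 0 receptors were called there, and 0.0384 to 0.121 over all alternatives. Leaving out 1 library gave 0 to 1 receptors called higher. Of the whole table, 134 genes were called higher and 157 lower, with 57 and 51 under no filter, 75 higher with no variance trend, 0 and 0 with the replicate block, and 9 to 132 higher and 3 to 179 lower on leaving out a library. Same-numbered libraries had correlations of deviations of -0.03, -0.07 and 0.08. With 3 libraries a group, these cannot tell whether equal numbers stand for a pairing. The study names the controls as littermates, and the sample titles do not say whether equal numbers share a litter or preparation. The block also ended the calls of Tnf (adjusted p = 0.113), Bcl3 (0.114) and Rasl10a (0.103). Of 477 values for 32 named genes, 4 reversed, all uncalled and near 0. They were Tnfsf10 without PgrCreCdc42f/f replicate 2 (-0.39 to 0.021 on leaving out 1 library), Rbck1 without PgrCreCdc42f/f replicate 3 (-0.028 to 0.11), and App without Cdc42f/f replicate 3 (0.0072) and without PgrCreCdc42f/f replicate 1 (-0.11 to 0.035). The causes were not tested. With 3 libraries a group, a difference as small as that of Tnfrsf1a (0.29) did not pass the threshold over all genes. Larger ones also failed, such as those of Tnfrsf21 (1.01), Tnfrsf12a (0.98) and Ngfr (-1.21). Ligands with few reads were not tested.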
